A study of Rattus norvegicus with 6 samples.

Results

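The genes described here encode the DNA replication machinery: 37 listed genes for origin licensing, the replicative helicase, the sliding clamp and its loader, the polymerases, nucleotide supply, entry into S phase, and the proteins that finish and package new DNA. Of the 37 genes, 34 had a probe set annotated to exactly 1 gene symbol, and the probe set with the highest mean signal over the 6 arrays stood for each gene. Cdc6 and Gins2 had no annotated probe set in the table used here, and Rrm2 had 2 probe sets that each name several genes, so these 3 genes are not analysed here. The 34 measured genes are among 10240 genes that were tested.

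RK3E is an epithelial line from rat kidney, immortalised by an adenovirus early region gene whose product binds the RB family of proteins. That gene is carried by transformed and parental cells alike. GLI1 is a zinc finger transcription factor of the Hedgehog pathway. In the 4 transformed samples a GLI1 expression construct had been transfected with a lipid reagent, and single foci of transformed cells had been picked and kept as lines. 1 array belongs to clone I, 2 arrays to clone II, and 1 array has no clone named. The 2 parental samples are the RK3E line without GLI1, grown in the same medium with serum. So the transformed group rests on a few picked lines, and the labels call the samples biological replicates with no word on whether each came from a separate culture. The p-values therefore cover only array-to-array spread. Each sample is a whole culture, so fewer cells that express a gene and less of its RNA per cell cannot be told apart.

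DNA replication begins when the origin recognition complex, with CDC6 and CDT1, loads the ring of MCM proteins onto DNA. In S phase CDC45 and the GINS complex join that ring to make the active helicase. Polymerase alpha with primase starts each strand, replication factor C loads the PCNA clamp, and polymerases delta and epsilon extend the strands. Many of these genes are transcribed at the start of S phase under E2F factors, which RB family proteins hold in check.

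Gene expression was measured as 1-colour Affymetrix signal, and all values below are log2 of that signal or differences of it. Levels of different genes are not compared, since each probe set has its own scale. Gli1 checked the labels. It read 13.15, 11.71, 11.77 and 12.17 on the GLI1 arrays and 5.17 and 6.50 on the parental arrays. Array values here and below are listed in the order no clone named, clone I, clone II replicate 1, clone II replicate 2, then parental replicates 1 and 2. The ratio of 3' to 5' GAPDH signal, a measure of RNA integrity, was 7.52 on clone II replicate 1 and 3.66 on parental replicate 1, and between 1.39 and 2.09 on the other 4 arrays. For actin the same ratio was 22.1 and 10.8 on those 2 arrays, and between 6.21 and 7.58 on the other 4 arrays. Of the epithelial markers 4 of 7 (Krt18, Krt19, Cdh1 and Cldn4) lay below the signal filter, as did 5 of 7 kidney tubule markers, 3 of 3 endothelial and 4 of 4 immune markers. The summed epithelial signal ran from 2204 to 9508 on GLI1 and 2140 to 2675 on parental arrays. Cldn1 rose by 1.95 (limma adjusted p = 0.014), and its other probe sets lay below the filter. Krt8 read 12.06, 12.57, 9.07 and 9.23 against 10.08 and 10.40, a difference of 0.49 (adjusted p = 0.783). It was lower in clone II than on the other GLI1 arrays (-3.17, adjusted p = 0.0157). Epcam read 11.09, 10.90, 9.23 and 8.75 against 8.77 and 8.92, a difference of 1.15 (adjusted p = 0.281). The kidney tubule sum ran from 2177 to 2649 and from 2953 to 3141, and Lrp2 fell by 1.09 (adjusted p = 0.0437). The other tubule marker tested, Aqp1, gave 0.08 (adjusted p = 0.898) with overlapping groups. The neural marker Map2 fell by 1.60 (adjusted p = 0.00717). The summed signal of 6 fibroblast markers ran from 2222 to 6329 on GLI1 arrays and from 152079 to 169496 on parental arrays. The collagen genes Col1a1, Col1a2 and Col3a1 carry that sum and fell, while Pdgfra gave -0.06 (adjusted p = 0.95) and Dcn and Lum lay below the filter with overlapping groups. The part of these marker differences in the results below was not tested.

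The main comparison sets GLI1-transformed against parental cells, to ask how replication genes differ between them. Of the 34 replication genes, 13 rose in GLI1-transformed cells, 0 fell and 21 did not pass (limma, Benjamini-Hochberg adjusted p under 0.05 over all probe sets tested). At an unadjusted p under 0.05 (limma), 18 were higher and 0 lower, beside 2642 higher and 2738 lower of all 18625 probe sets. The 13 are 38.2% of the measured members, beside 5.84% of all 18625 probe sets that rose and 7.25% that fell. All members gave bright signals, and among the brighter probe sets alone (mean log2 above 10.17) 8.76% rose. The rises were modest, from 1.52-fold for Pcna to 3.43-fold for Orc1. The median log2 difference of the 34 genes was 0.48, beside 0.07 over all genes tested, and 31 differences were positive and 3 negative.

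The members were also compared array by array. For 20 of the 34 genes (58.8%) all 4 GLI1 arrays lay above both parental arrays, for 0 they lay below, and for 14 the groups overlapped. Over all probe sets tested the shares were 19.0% above and 20.2% below. Relative to the parental means, the median member stood at 0.42, 0.58, 0.54 and 0.57 on the GLI1 arrays, while the median of all genes stood between 0.06 and 0.08. The array with no clone named was the lowest GLI1 array for 12 members and the highest for 3. Parental replicate 1 read below parental replicate 2 for 24 of the 34 genes, with a median gap of 0.18.

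**Figure D1:**
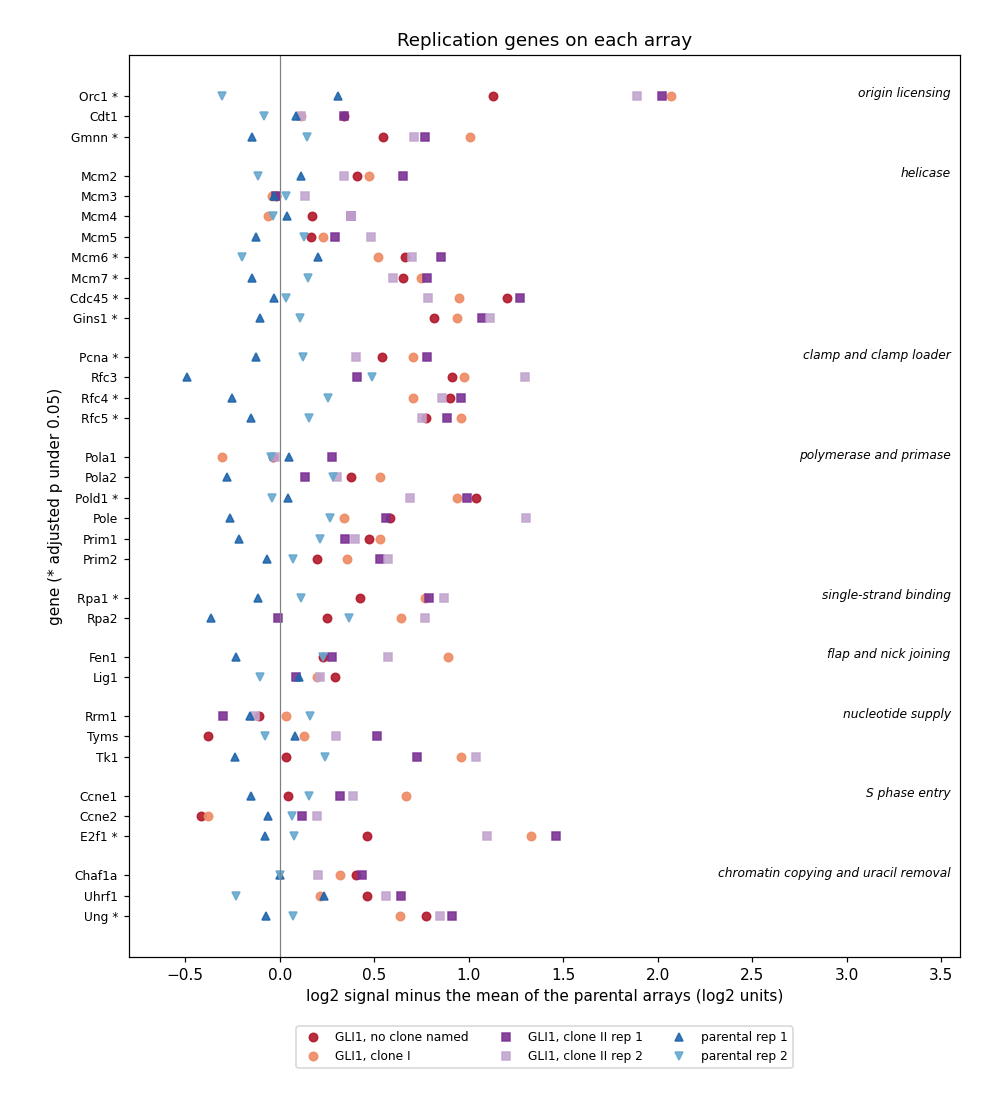
Log2 signal of each of the 34 measured replication genes on each of the 6 arrays, minus the mean of both parental arrays for that gene, grouped by role. Circles and squares are GLI1 arrays, triangles are parental arrays, and an asterisk marks the 13 genes with an adjusted p under 0.05, with Orc1 farthest from its parental arrays.

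The rise did not rest evenly on the arrays. With parental replicate 1 left out, 1 member was called (Orc1), and with parental replicate 2 left out 3 were (Gins1, Rfc4 and Rfc5). Without clone I 7 members were called, and without clone II replicate 1 there were 8. When both arrays with a GAPDH ratio above 3 were dropped (clone II replicate 1, parental replicate 1), only 1 parental array was left. The members lost their calls in that fit, and calls became fewer over all probe sets too. The median difference of the members was then 0.43. That median was 0.42 when parental replicate 1 was dropped and 0.69 when parental replicate 2 was.

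Origin licensing genes had the largest member difference. Orc1, which encodes the ATP-binding large subunit of the origin recognition complex, read 11.63, 12.57, 12.53 and 12.40 on GLI1 arrays and 10.81 and 10.20 on parental arrays. The lowest GLI1 array lay 0.82 above the higher parental array. Its means were 12.28 ± 0.44 (SD, n = 4) and 10.51 ± 0.43 (SD, n = 2), a rise of 1.78 (SE 0.31, adjusted p = 0.00723, limma). Here and for every gene below, n is 4 GLI1 and 2 parental arrays. Orc1 lost its call without parental replicate 2 (adjusted p = 0.0836), where its difference was 1.47.

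Gmnn encodes geminin, which binds CDT1 and blocks relicensing within a cycle. It read 13.59, 14.04, 13.81 and 13.75 on GLI1 arrays and 12.89 and 13.18 on parental arrays, with no overlap, and rose by 0.76 (SE 0.19, adjusted p = 0.0296). A dimmer probe set of Gmnn gave 0.54 (adjusted p = 0.404). Cdt1, the loading factor that geminin inhibits, read 14.18, 13.96, 14.18 and 13.95 against 13.93 and 13.76. Its GLI1 arrays cleared the parental arrays by 0.03 only, and its difference of 0.23 did not pass (adjusted p = 0.401, 95% interval -0.14 to 0.59). So of the 3 measured licensing genes 2 rose, an origin subunit and the licensing inhibitor.

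Of the 8 measured helicase genes 4 rose and 4 did not pass, with a median difference of 0.58. The 2 genes of largest difference encode the accessory factors that activate the ring. Cdc45 read 15.03, 14.77, 15.10 and 14.61 on GLI1 arrays and 13.79 and 13.86 on parental arrays, and rose 2.07-fold (log2 1.05, SE 0.18, adjusted p = 0.00695). Its 2 other tested probe sets rose as well, by 1.20 (adjusted p = 0.00484) and 1.07 (0.00576). Gins1, a GINS subunit, read 13.19, 13.31, 13.44 and 13.48 against 12.26 and 12.47 and rose 1.98-fold (log2 0.98, SE 0.17, adjusted p = 0.0077). In both genes the groups were separated by over 0.70.

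Within the MCM ring the subunit genes gave a graded series of differences. Mcm7 read 16.03, 16.12, 16.16 and 15.98 on GLI1 arrays and 15.23 and 15.53 on parental arrays, a rise of 0.69 (SE 0.15, adjusted p = 0.02). Mcm6 read 15.90, 15.76, 16.10 and 15.94 against 15.44 and 15.04, a rise of 0.68 (SE 0.17, adjusted p = 0.032). These 2 subunits passed the test. Mcm2 gave 0.47 (adjusted p = 0.0904, 95% interval 0.10 to 0.83) and Mcm5 0.29 (0.296, interval -0.09 to 0.67), with all GLI1 arrays above both parental arrays. Mcm4 gave 0.21 (adjusted p = 0.48), with clone I below both parental arrays. Mcm3 read 13.81, 13.78, 13.81 and 13.96 against 13.79 and 13.86, a difference of 0.01 whose sign changes between settings (adjusted p = 0.964). Its interval, -0.33 to 0.36, leaves out differences as large as those of Mcm6 and Mcm7, although the contrast between subunits was not tested.

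Promoter sequence was examined because E2F factors bind many of these genes. RefSeq windows (GRCr8), from 250 bases before to 50 after the start, were found for 31 of the 37 genes. They were searched on both strands for the E2F motifs TTTCCCGC, TTTGGCGC, TTTCGCGC and TTTGGGAA and for the GLI site GACCACCCA. At least 1 E2F motif was present in 13 of the 31 windows (41.9%), beside 923 of 27457 promoters of the same length (3.36%). TTTGGGAA lacks the CGC that the other motifs share. It was present in 0 of the 31 windows and in 424 of the 27457 promoters, so it adds to the second share only. The GLI site was present in 0 of the 31 and in 0.379% of all promoters. A string this rare would seldom be found in 31 windows, so no conclusion is drawn from the 0. Among genes measured here, a motif was found for 4 of the 11 risen genes with a window (Gins1, Gmnn, Mcm6 and Mcm7) and for 9 of the 19 others. A match of letters is a description and not a binding site. The stretches below show helicase genes that rose (Gins1, Mcm6, Mcm7) beside subunit genes that did not pass (Mcm2, Mcm3), with matches in capitals, 5′ to 3′ on the gene's strand.
Gins1 (chr3:160184875-160184926, + strand): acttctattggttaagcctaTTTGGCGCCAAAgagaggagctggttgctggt
Mcm6 (chr13:42404460-42404511, - strand): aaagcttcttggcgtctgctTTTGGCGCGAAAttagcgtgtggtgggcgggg
Mcm7 (chr12:22163203-22163428, - strand): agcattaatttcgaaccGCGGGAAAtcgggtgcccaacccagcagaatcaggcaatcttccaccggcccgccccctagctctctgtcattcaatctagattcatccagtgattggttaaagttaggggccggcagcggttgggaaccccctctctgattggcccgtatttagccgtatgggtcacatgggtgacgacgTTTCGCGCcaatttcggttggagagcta
Mcm2 (chr4:122918077-122918128, - strand): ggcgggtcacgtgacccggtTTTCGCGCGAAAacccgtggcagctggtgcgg
Mcm3 (chr9:30733717-30733772, - strand): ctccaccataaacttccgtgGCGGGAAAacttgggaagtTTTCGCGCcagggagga
In Gins1, Mcm6 and Mcm2 the capitals are 2 overlapping motifs on opposite strands, and in Mcm7 and Mcm3 they are 2 separate motifs. Of the risen helicase genes, Cdc45 had 0 matches to these exact strings in its window, and near matches were not searched.

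All 4 genes of the clamp and clamp loader gave differences of 0.61 or more, with a median of 0.85, and 3 rose. Pcna, the clamp that tethers polymerases to DNA, read 16.28, 16.44, 16.52 and 16.14 on GLI1 arrays and 15.62 and 15.86 on parental arrays. It rose by 0.61 (SE 0.17, adjusted p = 0.0443), the weakest call among the members. Rfc4, a small loader subunit, read 14.19, 13.99, 14.25 and 14.15 against 13.04 and 13.55 and rose by 0.86 (SE 0.19, adjusted p = 0.0191). Rfc5, its partner in the loader, read 14.68, 14.86, 14.79 and 14.66 against 13.75 and 14.06 and rose by 0.84 (SE 0.16, adjusted p = 0.0109). A second probe set of Rfc5 rose by 0.80 (adjusted p = 0.0116).

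Rfc3, another small loader subunit, had a difference as large as these but a wide spread. It read 13.26, 13.32, 12.76 and 13.65 on GLI1 arrays and 11.86 and 12.84 on parental arrays, so clone II replicate 1 overlapped parental replicate 2. The difference of 0.90 did not pass (SE 0.31, adjusted p = 0.0934). It passed with the replicate number as a block (adjusted p = 0.0326). Rfc1 and Rfc2, loader subunit genes outside the member list, gave 0.22 (adjusted p = 0.566) and 0.60 (0.056).

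**Figure D2:**
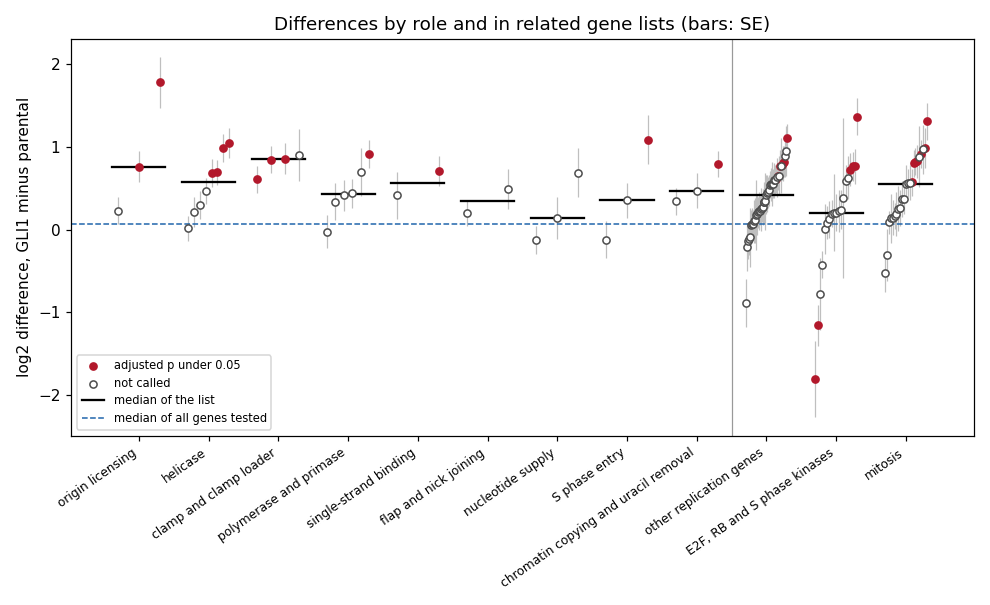
Log2 difference of GLI1-transformed minus parental cells for each gene, with its SE, for the replication members by role (left of the vertical line) and for 3 related gene lists (right). Filled points have an adjusted p under 0.05, black bars are list medians and the dashed line is the median of all genes tested (0.07), below every black bar.

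Among the 6 polymerase and primase genes 1 rose. Pold1, the catalytic subunit of polymerase delta, read 14.33, 14.23, 14.28 and 13.98 on GLI1 arrays and 13.34 and 13.25 on parental arrays. It rose 1.88-fold (log2 0.91, SE 0.17, adjusted p = 0.00866). Pole, the catalytic subunit of polymerase epsilon, read 12.48, 12.24, 12.45 and 13.20 against 11.63 and 12.16. Its difference of 0.70 did not pass (adjusted p = 0.148, 95% interval 0.05 to 1.35), and clone II replicate 2 stood above the other GLI1 arrays. The primase genes Prim1 and Prim2 gave 0.44 (adjusted p = 0.136) and 0.41 (0.179), both without overlap between groups.

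The polymerase alpha subunits, which work with primase to start each strand, lay lower in that series. Pola1, the catalytic subunit, read 12.90, 12.63, 13.21 and 12.91 on GLI1 arrays and 12.98 and 12.89 on parental arrays. Its difference was -0.02 (adjusted p = 0.951, 95% interval -0.47 to 0.42), and the sign changes under median centring. Pola2, its accessory subunit, gave 0.34 (adjusted p = 0.37), with clone II replicate 1 among the parental values.

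Single-stranded DNA behind the helicase is covered by replication protein A. Its large subunit gene Rpa1 read 13.88, 14.22, 14.24 and 14.32 on GLI1 arrays and 13.34 and 13.57 on parental arrays, and rose by 0.71 (SE 0.18, adjusted p = 0.0336). The middle subunit gene Rpa2 read 12.14, 12.52, 11.88 and 12.65 against 11.52 and 12.25, with overlap, and gave 0.41 (SE 0.29, adjusted p = 0.386). The nuclease gene Fen1 and the ligase gene Lig1, which trim and join Okazaki fragments, did not pass. Fen1 gave 0.49 (adjusted p = 0.215) and Lig1 0.20 (0.451), and in each the lowest GLI1 array lay within 0.02 of the higher parental array.

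None of the 3 measured genes of nucleotide supply rose, which for so few genes is near the 5.84% of all probe sets that rose. Their median difference of 0.14, which is that of Tyms, was the lowest of the roles. Rrm1, the large subunit of ribonucleotide reductase, read 14.66, 14.80, 14.47 and 14.64 on GLI1 arrays and 14.61 and 14.93 on parental arrays. Its difference was -0.13 (adjusted p = 0.674, 95% interval -0.51 to 0.25), with a sign that turns under median centring. Tyms, which makes thymidylate, read 11.61, 12.12, 12.50 and 12.28 against 12.06 and 11.91, a difference of 0.14 (adjusted p = 0.77). Here the array with no clone named lay below both parental arrays and the other 3 GLI1 arrays lay above them.

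Tk1, the thymidine salvage kinase, read 12.09, 13.01, 12.78 and 13.09 on GLI1 arrays and 11.82 and 12.29 on parental arrays. The array with no clone named lay between the parental arrays and the other GLI1 arrays above them. The difference of 0.69 did not pass (SE 0.30, adjusted p = 0.163), and it was 0.93 and passed once the array with no clone named was dropped (adjusted p = 0.024). The 2 other probe sets of Tk1 gave 0.60 (adjusted p = 0.25) and 0.58 (0.101).

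Of the 3 genes for S phase entry, E2f1 rose and the cyclin E genes did not pass. E2f1, which encodes an activating E2F factor, read 11.00, 11.87, 12.00 and 11.63 on GLI1 arrays and 10.46 and 10.61 on parental arrays. All GLI1 arrays were higher, with the array that has no clone named the lowest, and E2f1 rose 2.12-fold (log2 1.09, SE 0.29, adjusted p = 0.0417). Ccne1 gave 0.35 (adjusted p = 0.318) and Ccne2 -0.12 (0.772). Ccne2 read 12.90, 12.94, 13.44 and 13.52 against 13.26 and 13.38, so both clone II arrays lay above the parental arrays and the other GLI1 arrays lay below them.

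Among the genes that package or police new DNA, Ung rose. Ung encodes the glycosylase that removes uracil from DNA. It read 13.85, 13.72, 13.99 and 13.93 on GLI1 arrays and 13.01 and 13.15 on parental arrays, a rise of 0.79 (SE 0.16, adjusted p = 0.0143). Chaf1a, the large subunit of the histone chaperone that acts behind the fork, gave 0.34 (adjusted p = 0.196) with no overlap. Uhrf1, which brings the maintenance methyltransferase to new DNA, gave 0.47 (adjusted p = 0.174), and clone I read just below parental replicate 1.

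**Figure D3:**
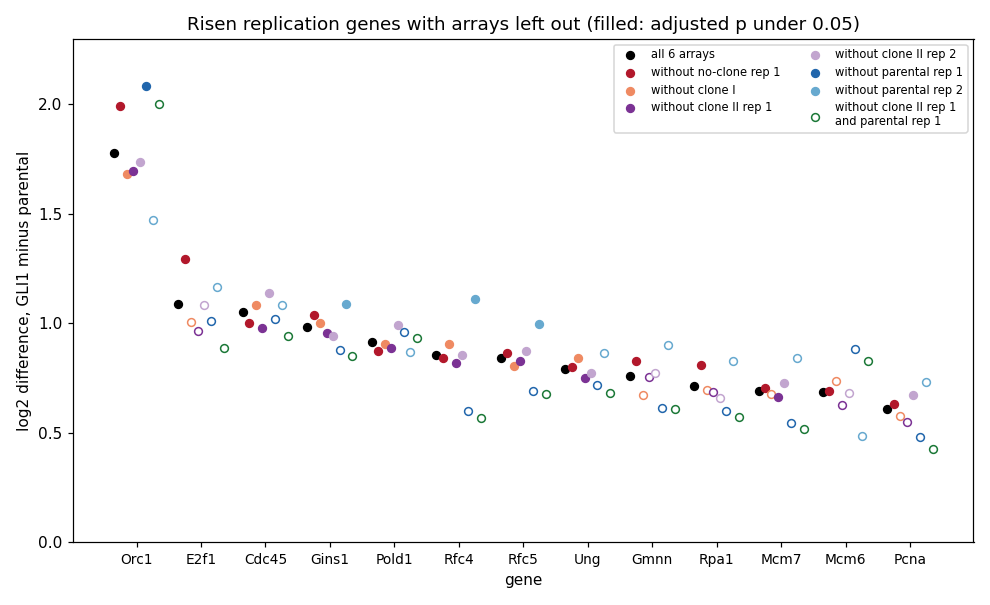
Log2 difference of GLI1-transformed minus parental cells for the 13 risen genes with all 6 arrays, with each array left out in turn, and without both arrays of highest GAPDH ratio. Filled points have an adjusted p under 0.05, and every plotted difference is above 0; Orc1 ranges from 1.47 to 2.08.

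Every one of the 13 risen genes kept a positive difference in each fit with an array left out, but none kept its call in all 6 of them. Orc1, Gins1, Rfc4 and Rfc5 kept the call in 5 of these fits, and Cdc45, Pold1 and Ung in 4. The calls of E2f1, Gmnn, Mcm6 and Rpa1 held in 1 fit only, the one that dropped the array with no clone named.

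Differences among transformed lines were examined by setting the 2 clone II arrays against the other 2 GLI1 arrays. Of the 34 members 0 were higher and 0 lower in clone II (limma adjusted p under 0.05). An unadjusted p under 0.05 was found for 1 member, Ccne2, and for 1611 of all 18625 probe sets. Over all probe sets 0.0161% were higher and 0.113% lower, so few calls were made in any gene. Ccne2 had the largest difference, 0.56 higher in clone II (adjusted p = 0.416), and Pola2 the lowest, -0.23. With 2 arrays a side, differences of this size were not detectable here, which does not show that the lines are alike.

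Other replication genes, from a list of 50 genes not used to define the members, were examined in the same fit. Of 43 tested, 7 rose, 0 fell and 36 did not pass, with a median of 0.42 and 38 positive differences. The 7 are 16.3% of those tested, beside the 5.84% of all probe sets and 8.76% of the brighter ones. Dtl, whose product directs the destruction of CDT1, read 15.05, 14.93, 15.15 and 14.72 on GLI1 arrays and 13.91 and 13.80 on parental arrays, and rose 2.15-fold (adjusted p = 0.00417). Gins4, another GINS subunit gene, rose by 0.82 (adjusted p = 0.0224), Pole2, the accessory subunit of polymerase epsilon, by 0.78 (0.0279), and the topoisomerase gene Top2a by 0.77 (0.0278). Orc6, Pold3 and Nasp also rose, and are named after their values were seen. Most of these 7 calls were also lost in 2 fits that kept both parental arrays. Only Dtl was called without the intensity trend (limma adjusted p = 0.0197) and when clone I was dropped (0.0144). In those fits Gins4 gave 0.0502 and 0.0619, Top2a 0.0721 and 0.0733, and Pole2 0.0602 and 0.0659. The count was 4 without either clone II array, 8 without the array with no clone named and 9 with median centring. Dropping parental replicate 1 gave a list median of 0.37, and dropping parental replicate 2 gave 0.47, each with only 1 parental array left.

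The E2F and RB families time the expression of these genes. They were examined in a list that also holds S phase kinases, cyclins and other cell cycle regulators. Calls went in both directions, and each called gene belongs to the E2F or RB family. Of 19 tested genes of that list 4 rose, 2 fell and 13 did not pass, with a median of 0.20. The shares are 21.1% risen and 10.5% fallen, beside 5.84% and 7.25% of all probe sets, so the fallen share is near the background. E2f8, an atypical E2F that represses E2F targets late in S phase, read 13.74, 13.40, 13.15 and 13.34 on GLI1 arrays and 11.78 and 12.31 on parental arrays, and rose 2.57-fold (log2 1.36, SE 0.23, adjusted p = 0.00582). E2f4, which encodes a mostly repressive family member, rose by 0.76 (SE 0.18, adjusted p = 0.0244). The call of E2f4 was lost without the intensity trend (limma adjusted p = 0.0546), without clone I (0.0645) and without clone II replicate 2 (0.0539). E2f8 and E2f4 also lost their calls without parental replicate 1, where their differences were 1.10 and 0.67. Both lost them without both arrays of high GAPDH ratio, where their differences were 1.18 and 0.67. E2f4 lost its call without parental replicate 2 as well, with a difference of 0.86. Each of these fits leaves only 1 parental array. E2f2 and E2f7 rose too, and are named after their values were seen (adjusted p = 0.0472 and 0.0448). In E2f8, E2f4, E2f2 and E2f7 all GLI1 arrays were above both parental arrays. E2f5 went the other way without passing: it read 12.40, 12.39, 12.34 and 12.37 against 12.86 and 12.74, a difference of -0.42 (adjusted p = 0.127). E2f6 gave 0.58 (adjusted p = 0.0832). Both are named after their values were seen.

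Rb1, the retinoblastoma gene, read 10.11, 9.94, 11.62 and 11.10 on GLI1 arrays and 12.83 and 12.17 on parental arrays. In log2 units Rb1 fell by 1.81 (SE 0.46; limma adjusted p = 0.0344), and the clone II arrays were the nearest to the parental arrays. Clone II exceeded the remaining GLI1 arrays by 1.33, which did not pass (adjusted p = 0.198). Rbl2, which encodes the related pocket protein p130, read 10.55, 10.45, 10.87 and 11.10 against 11.84 and 11.96 and fell by 1.16 in log2 units (SE 0.24; limma adjusted p = 0.0164). Rbl1, the gene of the pocket protein p107, gave 0.12 (adjusted p = 0.768), with overlap, and was chosen after its values were seen. The call of Rb1 was lost with median centring (adjusted p = 0.0527), without the intensity trend (0.0647), without clone I (0.0704) without either parental array (0.267 and 0.102) and without both arrays of high GAPDH ratio (0.149). That of Rbl2 was lost without either parental array (0.123 and 0.128) and without that pair (0.169). In these fits with parental replicate 1, parental replicate 2 or the pair dropped, the difference of Rbl2 was -1.22, -1.10 and -1.26, and that of Rb1 -1.48, -2.14 and -1.79. Without parental replicate 1, which leaves only 1 parental array, the calls of the list were lost in both directions. The median difference of the list was then 0.23.

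**Figure D4:**
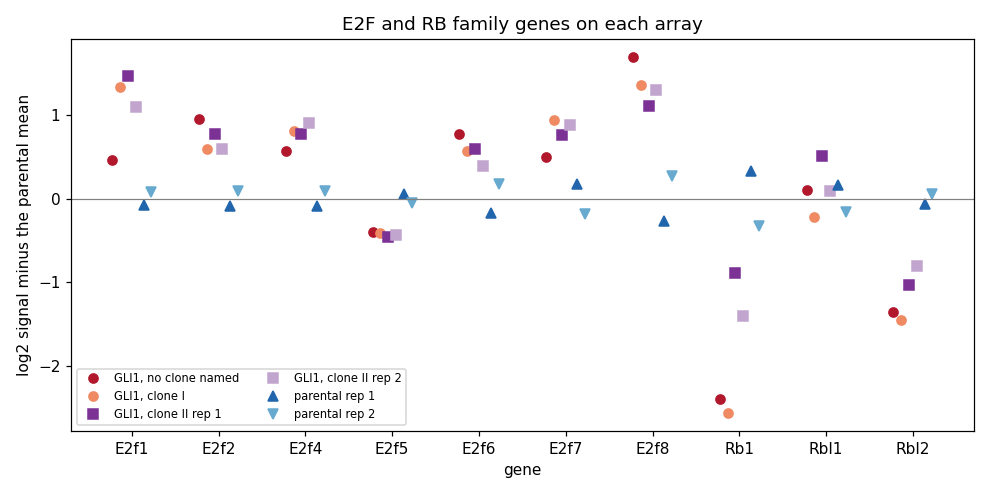
Log2 signal of the 7 measured E2F genes and 3 RB family genes on each of the 6 arrays, minus the mean of both parental arrays for that gene. GLI1 arrays (circles and squares) lie above both parental arrays (triangles) for each E2F gene but E2f5, below them for E2f5, Rb1 and Rbl2, and on both sides of them for Rbl1.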

How the data were processed

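The table deposited by the authors holds 1 linear intensity for every probe set on each array. The submitters' processing notes name MAS5, while its version and the genome build are not given in the sources used here. Each array had the same trimmed mean signal. Array medians ran from 568 to 696.

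Deposited signals were floored at 1 and put on the log2 scale. Of 31042 probe sets left after 57 control probe sets, the 18625 with a mean log2 above the 40th percentile (8.33) were tested with limma 3.58.1 (R 4.3.3; lmFit, eBayes with an intensity trend, two-sided), 4 GLI1 against 2 parental arrays, and p-values were adjusted by Benjamini-Hochberg across these 18625. A 3-level model gave clone II against the other GLI1 arrays. A gene is said to rise, fall or be called where its adjusted p was under 0.05; SDs are between arrays, and SEs and 95% intervals belong to differences. All 34 measured members passed the filter. The steps were tested on simulated data. Symbols come from a table of probe sets and genes.

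Named genes were the members, Gli1, and from each related list the 4 calls with the lowest adjusted p plus 2 of the rarer direction where there were any. Further genes were named outside this rule with their values known. They are those marked as such, Rfc1, Rfc2, Ccna2, and the cell type markers other than Col1a1, Col1a2, Col3a1, Map2 and Cldn1. The members and lists were chosen with earlier results of these data known. Alternatives covered scaling, floor, filter, variance prior, probe set, clone averaging, a replicate block and left-out arrays.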

Additional observations from a re-analysis of the deposited data

Results flagged for a closer look

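Mcm3 was picked out for 1 array that stands apart: among the 4 GLI1 arrays clone II replicate 2 read 13.96 and the next highest array 13.81, a gap that is 0.876 of the group's range. The whole range is narrow (SD 0.08). Of 34 genes examined in this way 1 was picked out, and chance alone picks about 1 in 20.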

How the results depend on the processing

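The count of 13 risen members stayed between 9 and 13 with median centring, quantile normalization, 32 added before the log, no filter, a 60th percentile filter, averaged clone II arrays or the second probe set of a gene, and no member was called lower in any fit run. Median centring moved the median of all probe sets from 0.005 to 0.165. The count was 6 without the intensity trend, which left Orc1, Cdc45, Gins1, Rfc5, Pold1 and Ung, and 3 with a 2-fold minimum. The calls were lost without both arrays of highest GAPDH ratio, a fit with only 1 parental array and a median difference of 0.43. With 1 array left out it ran from 1 to 14. With the replicate number as a block it was 13, of which 12 were the same genes: Pcna was lost and Rfc3 gained. Same-numbered GLI1 and parental arrays deviated from their group means with correlations of -0.026 to 0.321 across probe sets, and the labels give the numbers no further meaning. The count for clone II against the other GLI1 arrays was 0 in each of the 5 fits (limma).

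Signs turned only for members that did not pass. Mcm3 became -0.029 with quantile normalization, -0.00014 with averaged clone II arrays and -0.0070 without both arrays of highest GAPDH ratio, and ran from -0.0256 to 0.0466 with 1 array left out. With median centring Pola1 became 0.136, Rrm1 0.034 and Ccne2 0.040. With 1 array left out Pola1 ran from -0.124 to 0.069 and Rrm1 from -0.284 to 0.0305. The cause of these shifts was not tested. Over all members and settings, 459 values kept their direction and their side of the threshold, 78 lost the call, 2 gained it and 11 changed sign. The number of arrays limits the precision.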

Other observations

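Genes of mitosis were examined beside the replication genes, from a list of 25 with 23 tested. Of these, 7 rose, 0 fell and 16 did not pass (limma, adjusted p under 0.05), a share of 30.4% beside 5.84% of all probe sets and 8.76% of the brighter ones, with a median log2 difference of 0.55. Aurkb, the kinase of the chromosomal passenger complex, read 13.37, 14.09, 13.76 and 13.93 on GLI1 arrays and 12.35 and 12.60 on parental arrays, and rose 2.48-fold (adjusted p = 0.00648). Ube2c, the ubiquitin-conjugating enzyme of the anaphase-promoting complex, rose by 0.92 (adjusted p = 0.00938), the spindle gene Nusap1 by 0.80 (0.0123) and the checkpoint kinase gene Bub1 by 0.82 (0.013). Cenpf, Foxm1 and Mad2l1 also rose, and are named after their values were seen. Most or all calls of this list were lost when either parental array was dropped, which leaves only 1 parental array. The median difference of the list was then 0.36 without parental replicate 1 and 0.47 without parental replicate 2.

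Mki67, the common proliferation marker, read 14.81, 14.80, 14.70 and 14.77 on GLI1 arrays and 14.71 and 14.65 on parental arrays. Its difference was 0.09 (adjusted p = 0.74, 95% interval -0.23 to 0.41), and it was chosen after its values were seen. Ccna2, the cyclin of S phase and G2, gave 0.24 (adjusted p = 0.553), with the array that has no clone named below both parental arrays.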
